A study of Mus musculus with 36 samples.

Results

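Peri-ductal stroma and epithelium were compared in vehicle-exposed fetal mammary glands that lack estrogen receptor α (ERα), the question being which differences between the compartments are present without this receptor. The 6 arrays of the comparison were chosen by their labels, genotype "ER-alpha knockout null" (ERKO) and exposure "vehicle", from the 36 arrays of the series. They are 3 stroma and 3 epithelium arrays, paired by the biological replicate number. Both compartments of ERα(+/+) and ERα(−/−) glands were profiled after fetal exposure to vehicle, bisphenol A or ethinylestradiol, with 3 arrays in each of the 12 groups. All fetuses were C57BL/6 females taken at embryonic day 19 (E19), and the tissue was the fourth inguinal mammary gland. The knockout fetuses used here came from matings of ERα(+/−) parents, and their dams carried pumps that released only the DMSO vehicle from E8. The ERα(+/+) vehicle glands given beside them as a reference carry the same labels apart from the genotype. Per the methods, each gland came from 1 fetus and the glands of a group came from independent litters, so n = 3 glands throughout. The methods also state that a treated litter gave 1 fetus of each genotype. Knockout and wild type glands may therefore share dams. The labels do not give the litter, and it was not in the fit. The ducts and the stroma around them were cut out by laser from stained frozen sections, and the RNA was amplified before hybridization.

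The mammary ducts of a late fetus are tubes of epithelial cells joined by E-cadherin, desmosomes and tight junctions, with keratins as their intermediate filaments. The stroma around them holds fibroblasts that secrete collagens and proteoglycans, together with vessels, leukocytes, mast cells and the precursors of the fat pad, and it exchanges Wnt, FGF, PDGF, Notch and ERBB signals with the ducts. ERα is a nuclear receptor that binds estrogen and turns on genes such as the progesterone receptor, and in the fetal gland it is known mainly from the mesenchyme.

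Each array gave a linear signal intensity for 45101 probe sets, a probe set being a group of oligonucleotides that reports 1 transcript or a few. The median signal was 38.3, 23.6 and 21.3 on the stroma arrays of glands 1, 2 and 3 and 26.2, 42.8 and 21.2 on the epithelium arrays, an order that is kept for all values below, with the stroma first. Intensities were raised to at least 0.1, taken to log2 and compared within the gland, and a difference is given as stroma minus epithelium. The median difference over all probe sets was −0.14 in ERα(−/−) glands and 0.02 in ERα(+/+) glands, and −0.03 in ERα(−/−) glands once the arrays were quantile normalized. The 3′ to 5′ ratio of the Gapdh control probe sets was between 8.56 and 14.0 on the 6 arrays, and its lowest value was that of the epithelium of gland 3. The same ratio of the actin control probe sets was between 0.918 and 1.19. The methods state an upper limit for such ratios of housekeeping genes, which the Gapdh values exceed and the actin values do not. Effects of this on the calls were not tested. Arrays correlated with r between 0.744 and 0.788 within the stroma, 0.789 and 0.811 within the epithelium and 0.752 and 0.789 between the compartments of a gland, over log2 signals of all probe sets.

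The labels were checked with lists of cell type markers. The summed signal of 25 epithelial markers was 1915, 1706 and 10204 on the stroma arrays and 17627, 26503 and 32033 on the epithelium arrays. The stroma of gland 3 thus carried more epithelial signal than the stroma of the other 2 glands, and 13 of its 25 epithelial markers reached a signal of 100, against 4 in each of the others. The 25 fibroblast markers summed to 90364, 52624 and 81059 in the stroma and 38700, 19156 and 35181 in the epithelium, where 22, 17 and 18 of them still reached 100. Keratinised epidermis, which lies above the gland, gave sums between 204 and 867 for 15 markers on all 6 arrays. Skeletal muscle markers summed to between 362 and 2637, and the highest value was that of the epithelium of gland 1, where 7 of 20 reached 100. In the wild type, gland 3 stood apart, with an epidermal sum of 19722 in its stroma and of 15713 in its epithelium, where fibroblast markers summed to 59799. The count of wild type calls is therefore given also without it. In tissue of mixed cells, fewer cells of a type and less RNA per cell cannot be told apart.

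**Figure D1:**
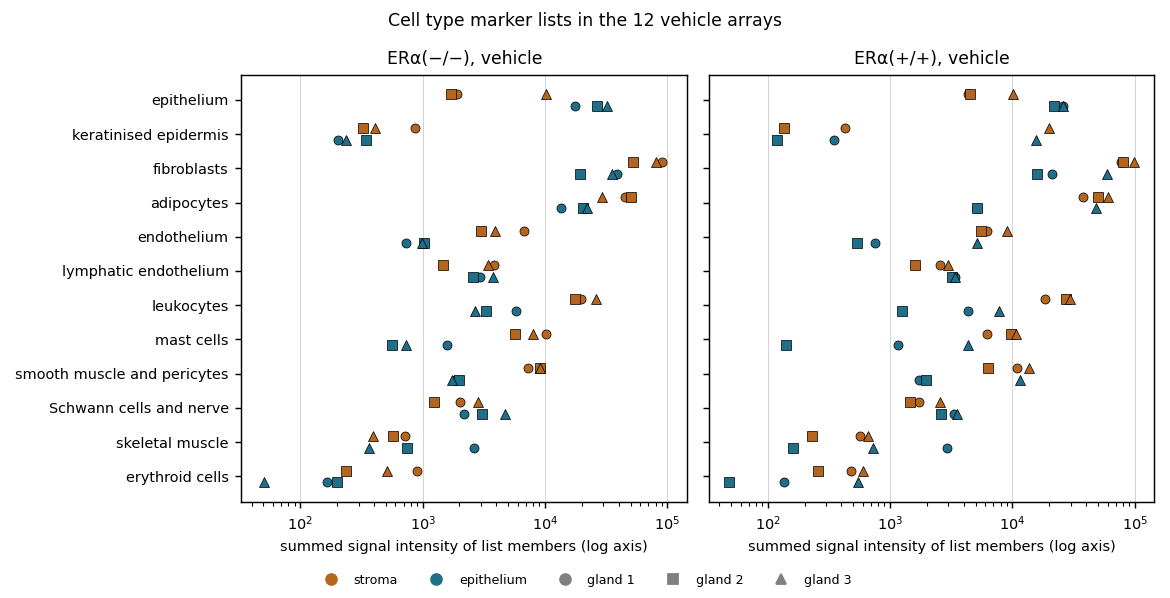
Summed signal intensity (log axis) of the members of 12 cell type marker lists on each vehicle array, by genotype. Each point is 1 array, its colour gives the compartment and its shape the gland. In ERα(−/−) glands the epithelial sums of the compartments did not overlap, and the stroma of gland 3 was the highest stroma array at 10204. In ERα(+/+) glands both compartments of gland 3 had high epidermal sums, 19722 and 15713.

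The targeted gene was measured by 3 probe sets, and the part of it that the knockout removes is not given in the sources used here, so a probe set outside that part would check nothing. The brightest, 1435663_at, read 26.3, 34.6 and 37.6 in the stroma against 13.3, 2.9 and 1.6 in the epithelium of ERα(−/−) glands, without overlap. The wild type read 50.4, 201.3 and 396.7 in the stroma and 17.9, 1.1 and 44.8 in the epithelium, so each wild type stroma array was above each knockout one. Its compartment difference was 3.04 (standard error 0.899, limma adjusted p = 0.166) in the knockout and 4.05 in the wild type. The probe set 1460591_at read 29.6, 48.7 and 53.2 in the knockout stroma and 75.5, 11.9 and 260.7 in the wild type stroma, which overlap. The probe set 1421244_at read 30.1, 22.0 and 7.0 and 11.3, 11.1 and 94.2, which overlap as well.

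Without ERα, 101 of 45101 probe sets (0.224%) differed between the compartments at a limma adjusted p under 0.05, of which 31 (0.0687%) were higher and 70 (0.155%) lower in the stroma. The lower ones held 59 gene symbols, among them the keratins Krt8 and Krt14, E-cadherin (Cdh1), the protease Prss8 and the polarity gene Pard6b, and the higher ones held 23 symbols, among them the collagen receptor Ddr2, the mast cell tryptase Tpsab1 and the ETS factor Fli1. Their differences ran from 2.75 to 6.99 in size for the higher and from 2.75 to 7.24 for the lower ones on the log2 scale, since the median standard error over all probe sets was 0.898. After quantile normalization 117 (0.259%) were higher and 119 (0.264%) lower, so the split between directions depends on the scaling, and 31 of the 31 and 69 of the 70 were called again. At an unadjusted p under 0.05 there were 2331 higher (5.17%) and 2977 lower (6.6%). Taking each of 18194 genes at its brightest probe set, the unadjusted shares were 5.85% higher and 7.03% lower, and the shares without overlap between the 3 and 3 arrays were 6.46% and 8.06%, which are the background for the lists below.

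The calls rest on the spread pooled over all 18 glands of the series. With the 6 ERα(−/−) vehicle arrays alone, or the 12 vehicle arrays, no probe set passed (0), although 1764 higher and 1870 lower probe sets had an unadjusted p under 0.05 in the 6 arrays and 1746 and 1979 in the 12. Without gland 1 the calls were 3 higher and 39 lower, without gland 2 they were 15 and 7, without gland 3 they were 1 and 12, and with all glands but no gland block they were 15 and 57.

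Prss8, which encodes the membrane serine protease prostasin, read 3.3, 1.1 and 3.1 in the stroma against 180.5, 390.6 and 517.5 in the epithelium. The compartments were far apart, and the stroma fell by 7.21 on the log2 scale (standard error 1.39, adjusted p = 0.0453) and, with 16 added to every signal before the log, by 4.24. Scube3, which encodes a secreted glycoprotein with EGF-like repeats, read 3.6, 5.4 and 30.0 against 450.7, 487.5 and 763.3, and fell by 6.04 (standard error 0.641, adjusted p = 0.00302). It was the only one of the 24 genes named by rank that stayed past the threshold when any one of the 3 glands was left out. Krt8, a keratin of simple epithelia, read 2.6, 52.7 and 570.5 in the stroma against 1161.1, 2419.7 and 5084.1 in the epithelium. Its stroma arrays spanned a wide range, with gland 3 the highest, and all were below the epithelium, so that it fell by 5.83 (standard error 0.819, adjusted p = 0.0154). All 3 Krt8 probe sets were called. Of these, 1435989_x_at, given here, and 1423691_x_at are of the x type, whose probes can match related sequences.

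The transcription factor Tfap2b, of the AP-2 family, read 1.9, 1.6 and 8.6 in the stroma against 160.1, 239.7 and 176.4 in the epithelium, and fell by 5.99 (adjusted p = 0.0235). Its other probe set also fell, by 3.18. Lgr5, the R-spondin receptor that marks epithelial stem cells in several tissues, read 2.4, 0.6 and 16.7 against 174.6, 380.4 and 600.0 at 1444519_at and fell by 6.89 (adjusted p = 0.0372). Its brighter probe set read 120.9, 49.6 and 125.6 against 388.4, 1211.8 and 1247.5, again without overlap, with a smaller difference of −3.20 that did not pass (adjusted p = 0.0596). For the desmosomal cadherin Dsg2, 1439476_at read 11.5, 0.5 and 50.8 against 386.0, 1182.0 and 1445.6 and fell by 7.04 (adjusted p = 0.0266), while its 5 other probe sets had differences between −5.27 and −2.34 that did not pass.

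The other 6 of the 12 largest falls were those of Rhpn2, Pard6b, a subunit of the PAR polarity complex, Prmt3, an arginine methyltransferase, Ttyh1, a membrane protein of the tweety family, Glce, an enzyme of heparan sulfate synthesis, and the desmosomal plaque protein Ppl. They fell by between 5.31 and 7.24, with adjusted p between 0.0154 and 0.0402. At these called probe sets none of their stroma arrays read above 25.7. Several of these genes have another probe set that did not pass. That of Rhpn2, the largest fall, read 13.1, 113.5 and 11.4 against 3.1, 153.5 and 221.6. These overlap, with a difference of −0.88 (adjusted p = 0.880). Prmt3 read 2.3, 0.9 and 1.5 against 54.0, 136.3 and 198.6 at the called probe set, but its 4 others had differences between −1.54 and −0.52. For Glce the brightest probe set read 292.6, 184.7 and 395.5 against 993.5, 914.4 and 1260.9, a difference of −1.91 with an adjusted p of 0.265. Signals of a few units lie near the bottom of the scale, and with 16 added to every value before the log the differences of the 24 genes ran from 2.29 to 4.83 in size, with 23 of them still past the threshold.

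**Figure D2:**
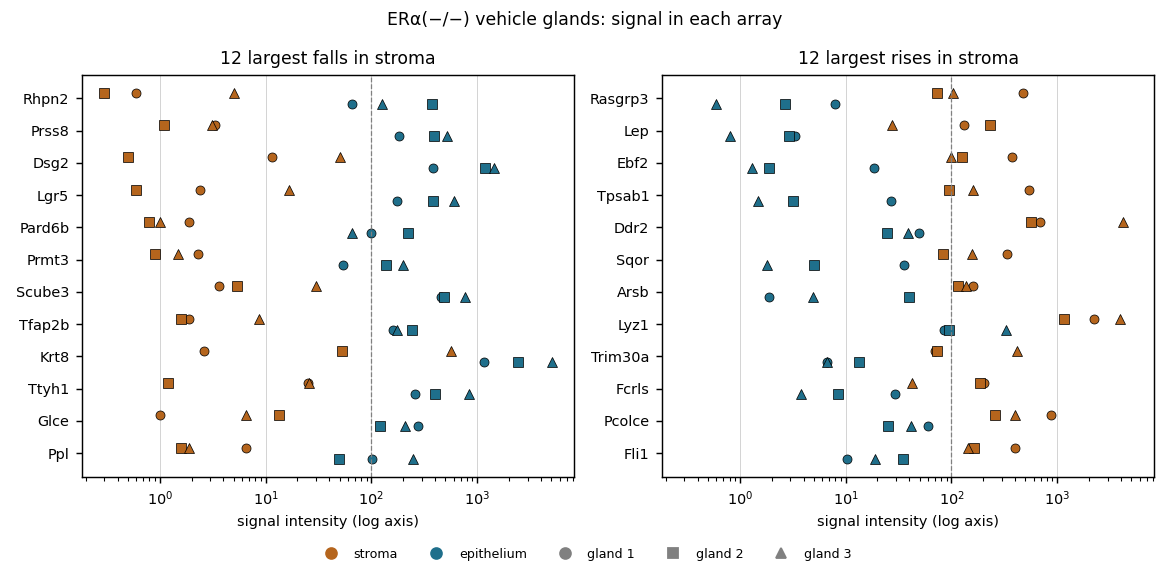
Signal intensity (log axis) of the 12 genes with the largest fall and the 12 with the largest rise in the stroma of ERα(−/−) vehicle glands, at the called probe set. Each point is 1 array, its colour gives the compartment and its shape the gland, and the dashed line marks a signal of 100. The compartments do not overlap for any of the 24 genes, which the rule for naming them required.

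Of the 25 epithelial markers measured, 6 fell past the threshold and none rose, against 0.225% of all genes called lower at the brightest probe set. They were Prss8, Krt8, Krt14, Cdh1, St14 and Spint1. At an unadjusted p under 0.05, 19 were lower and 0 higher, and 18 did not overlap. The median difference was −3.26 over the list and −0.13 over all genes. Within the glands the list's median was −3.25, −4.00 and −2.12. Without gland 3 the unadjusted count was again 19, and without gland 2 it was 17.

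Among the keratins, Krt14, which pairs with Krt5 in basal cells, read 27.1, 36.9 and 139.8 in the stroma against 632.5, 1133.4 and 1167.8 in the epithelium, and fell by 4.18 (standard error 0.683, adjusted p = 0.0248). Krt18, the partner of Krt8, read 47.7, 180.2 and 658.1 against 1433.5, 2723.4 and 2869.6, a difference of −3.65 that did not pass (adjusted p = 0.13). Of 12 keratins of simple and basal epithelium, 2 fell past the threshold and 7 were lower at an unadjusted p under 0.05, with a median of −2.49. Krt14 reads from an x-type probe set, whose probes can match related keratins, and 1460347_at also fell, by 4.46, while a dim one differed by 0.16.

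Of 19 cadherin, desmosome and adherens junction genes, 3 fell past the threshold, and 11 were lower and 1 higher at an unadjusted p under 0.05. Cdh1, or E-cadherin, read 28.8, 31.5 and 120.0 in the stroma against 573.8, 935.1 and 986.2 in the epithelium, and fell by 4.08 (standard error 0.709, adjusted p = 0.0338). The desmosomal plakophilin Pkp1 read 34.4, 77.3 and 55.9 against 350.2, 1282.0 and 1083.9, and fell by 3.89 (adjusted p = 0.0394). The third was Ppl. The higher one was Cdh11, a cadherin of mesenchymal cells, with 328.1, 237.8 and 387.4 against 79.0, 76.8 and 62.8, a difference of 2.10 (adjusted p = 0.169). The median was −2.80.

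Tjp3, the tight junction scaffold ZO-3, read 46.7, 8.7 and 33.6 against 538.4, 240.2 and 272.7, and fell by 3.78 (standard error 0.525, adjusted p = 0.0154). It was the one called of 21 claudin and tight junction genes at their brightest probe sets, and 14 of them were lower and 1 higher at an unadjusted p under 0.05, with a median of −2.69. The higher one was Cldn5, the claudin of endothelium, with 533.9, 178.2 and 135.3 against 85.4, 31.9 and 40.7. Cldn6, a claudin of embryonic epithelia, read 14.6, 100.3 and 1666.8 against 2418.9, 3850.9 and 4867.7, a difference of −4.73 that did not pass (adjusted p = 0.0857), and its stroma value in gland 3 was well above those of the other glands.

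The membrane serine proteases and their inhibitors act on each other on the epithelial surface, with matriptase (St14) and prostasin held back by Spint1 and Spint2. St14 read 41.7, 57.7 and 35.0 in the stroma against 343.8, 561.6 and 633.9 in the epithelium, and fell by 3.50 (standard error 0.509, adjusted p = 0.0185). Spint1 read 34.9, 86.9 and 85.0 against 331.2, 656.2 and 674.8, and fell by 3.05 (adjusted p = 0.0484). With Prss8, protease and inhibitor were thus lower together, 3 of the 10 list members past the threshold and 5 at an unadjusted p under 0.05, with a median of −1.72.

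CAGGTG or, on the other strand, CACCTG are E-box letters, a motif of many promoters of epithelial genes. In RefSeq promoters of GRCm38.p6, from 250 bases before to 50 after the start, 14 of the 25 epithelial markers were matched, and 12 of their 15 windows (80.0%) held these letters on either strand, against 6640 of 32851 windows (20.2%) of all genes. For claudins and tight junctions it was 16 of 24 windows (66.7%), for cadherins, desmosomes and adherens junctions 2 of 6 (33.3%), for estrogen target genes 8 of 17 (47.1%) and for fibroblast markers 1 of 19 (5.26%). The epithelial markers share Cldn3, Cldn4, Cldn7 and Rab25 with the tight junction list, and Cdh1, Epcam and Dsp with the cadherin list. The shares of these lists are therefore not independent, and the lists were chosen with earlier results of these data known. Of the windows of genes called lower in ERα(−/−) stroma, 17 of 48 (35.4%) held them, and of those of genes called higher, 6 of 22 (27.3%). The full palindrome of the estrogen response element, with any 3 letters between its arms, was in 23 of the 32851 windows (0.07%) and in none of the windows of these lists and calls, nor in the 17 windows of estrogen target genes. A match of letters is a description of the sequence and not a binding site. The 4 stretches below, shown because they differ in number and place of the E-box letters and belong to epithelial markers whose arrays did not overlap between compartments, are the 250 bases before the start on the gene's own strand, with the E-box letters in capitals. Krt8 lies on the minus strand at chr15:102004343-102004592, Rab25 on the minus strand at chr3:88548280-88548529, Spint2 on the minus strand at chr7:29281978-29282227 and Epcam on the plus strand at chr17:87635729-87635978, all in GRCm38.p6.
Krt8: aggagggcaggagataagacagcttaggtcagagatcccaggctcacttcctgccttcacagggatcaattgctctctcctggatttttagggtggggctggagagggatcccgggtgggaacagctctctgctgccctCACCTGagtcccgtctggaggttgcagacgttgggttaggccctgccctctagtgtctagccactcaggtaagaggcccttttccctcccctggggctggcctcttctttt
Rab25: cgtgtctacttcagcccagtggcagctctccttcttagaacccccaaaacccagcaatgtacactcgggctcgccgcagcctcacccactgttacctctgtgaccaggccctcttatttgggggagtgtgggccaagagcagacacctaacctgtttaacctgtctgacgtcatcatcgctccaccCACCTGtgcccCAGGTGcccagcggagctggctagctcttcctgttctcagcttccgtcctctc
Spint2: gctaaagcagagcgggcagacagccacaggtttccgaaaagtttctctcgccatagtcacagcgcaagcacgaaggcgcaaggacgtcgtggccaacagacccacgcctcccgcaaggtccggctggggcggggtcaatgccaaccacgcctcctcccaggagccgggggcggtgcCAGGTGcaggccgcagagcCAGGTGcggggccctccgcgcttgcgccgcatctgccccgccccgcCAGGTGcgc
Epcam: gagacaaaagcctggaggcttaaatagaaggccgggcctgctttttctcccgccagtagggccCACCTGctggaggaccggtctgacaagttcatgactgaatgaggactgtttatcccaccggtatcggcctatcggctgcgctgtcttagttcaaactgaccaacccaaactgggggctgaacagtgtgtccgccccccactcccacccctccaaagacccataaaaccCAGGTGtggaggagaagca

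Counted to the first base of the match, Krt8 holds the letters at 111 bases before the start, Rab25 at 64 and 53, Spint2 at 74, 55 and 9, and Epcam at 187 and 19. Rab25, a GTPase of epithelial vesicle recycling, read 7.8, 4.2 and 47.0 in the stroma against 173.4, 278.5 and 181.1 in the epithelium, without overlap, a difference of −4.16 (adjusted p = 0.0859). Spint2 read 185.1, 253.2 and 917.2 against 1695.7, 2601.4 and 3296.0, a difference of −2.80 (adjusted p = 0.0779). The adhesion molecule Epcam read 220.9, 213.5 and 2423.0 against 3473.2, 4747.9 and 4915.6, a difference of −3.16 (adjusted p = 0.102). None of these 3 passed, and in each the stroma of gland 3 was the highest of the 3 stroma arrays.

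Factors of the Zeb and Snail families are known as repressors of epithelial genes. Zeb1 read 1544.9, 1491.5 and 698.8 in the stroma against 272.1, 40.4 and 37.6 in the epithelium, a difference of 3.98 (adjusted p = 0.0711). Its relative Zeb2 read 2084.0, 819.7 and 1259.0 against 332.7, 424.8 and 35.6 (difference 2.91, adjusted p = 0.104). Snai1 was dim, at 41.6, 24.9 and 15.2 against 1.7, 1.7 and 5.1. None of the 3 passed the threshold, and their arrays did not overlap between compartments. They were picked with their values known, and Snai2 of the same list is not shown. Over all genes, 6.46% were higher in the stroma without overlap. Repression of epithelial genes by these factors was not tested. Of 19 mesenchymal and EMT transcription factors, 10 were higher and 1 lower at an unadjusted p under 0.05, with a median of 2.16. None (0) passed the adjusted threshold at the brightest probe set. The member Ebf2 was called at another probe set, given below. Meox2, a homeobox factor of mesoderm, read 524.2, 154.6 and 1052.2 against 18.9, 19.5 and 68.3, and Twist1, a basic helix-loop-helix factor, read 670.5, 398.2 and 778.3 against 191.4, 55.3 and 49.5, with differences of 3.91 and 2.88. The lower one was Foxc1, with 7.4, 53.6 and 12.1 against 80.5, 191.5 and 67.3.

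Of 22 epithelial transcription and splicing regulators, Grhl3 passed, a grainyhead factor of epithelial barriers. It read 13.1, 1.4 and 2.2 in the stroma against 46.5, 80.7 and 146.2 in the epithelium, and fell by 4.58 (adjusted p = 0.0394). A further 10 were lower at an unadjusted p under 0.05, the median was −1.89, and none was higher. Elf5, the factor of secretory progenitors, read 4.7, 1.3 and 17.7 against 87.6, 635.6 and 237.4, and the splicing regulator Esrp1 read 10.9, 13.8 and 104.5 against 1254.9, 791.9 and 1352.2. Gata3, needed for luminal fate, read 1.9, 12.8 and 8.5 against 46.1, 85.6 and 313.8. The 3 differences were −5.63, −5.46 and −4.18, without overlap and with adjusted p of 0.0633, 0.0633 and 0.0566. Runx1, which lies outside this list and was chosen after its value was seen, fell by 3.12 at 1422864_at, with 224.9, 173.6 and 161.8 in the stroma against 1136.9, 1945.1 and 1871.7 in the epithelium (adjusted p = 0.0226). This was the only called one of its 6 probe sets, and the others had differences between −3.42 and −0.19. Of these, 1427650_a_at overlapped, at 50.7, 61.9 and 88.5 against 74.3, 41.6 and 134.4.

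In the other direction, Rasgrp3, a guanine exchange factor for Ras known from endothelial and B cells, read 479.4, 73.2 and 102.9 in the stroma against 7.9, 2.7 and 0.6 in the epithelium, and rose by 6.04 (standard error 0.964, adjusted p = 0.0226) and, with 16 added to every signal before the log, by 3.16. Its other probe set read 355.3, 74.3 and 52.8 against 114.4, 83.1 and 11.4, which overlap. Ddr2, a receptor tyrosine kinase for fibrillar collagen, read 683.6, 562.1 and 4194.4 against 49.0, 24.4 and 39.1, and rose by 5.02 (standard error 0.963, adjusted p = 0.0444), with gland 3 far above the other stroma arrays. Its other probe set read 270.6, 80.3 and 67.1 against 63.8, 15.4 and 48.5, without overlap but with a smaller difference of 1.65 that did not pass (adjusted p = 0.609). Pcolce, an enhancer of procollagen processing, read 866.9, 257.4 and 394.5 against 59.7, 25.0 and 41.2, and rose by 3.49 (adjusted p = 0.034). Its brighter probe set overlapped, at 4646.7, 3920.1 and 6001.9 against 1678.2, 217.1 and 5331.5.

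Lep, which encodes the adipocyte hormone leptin, read 132.5, 230.9 and 27.7 in the stroma against 3.3, 2.9 and 0.8 in the epithelium, and rose by 5.59 (standard error 1.07, adjusted p = 0.0444). It was the one of the 24 genes that did not pass with 16 added before the log (adjusted p = 0.0657). Ebf2, a factor of brown and beige preadipocytes, read 376.9, 126.3 and 99.9 against 18.6, 1.9 and 1.3 at 1449102_at and rose by 5.55 (adjusted p = 0.0472), but its 2 other probe sets overlapped, with differences of 1.20 and 1.21. Fli1, an ETS factor of endothelium and blood cells, read 396.4, 163.6 and 143.0 against 10.3, 34.5 and 19, and rose by 3.47 (adjusted p = 0.0394). Its other probe set differed by 3.41, without overlap, and did not pass (adjusted p = 0.183).

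The mast cell tryptase Tpsab1 read 540.5, 95.4 and 158.4 against 27.0, 3.2 and 1.5, and rose by 5.31 (standard error 0.901, adjusted p = 0.0294). Lyz1, a lysozyme, read 2219.5, 1168.0 and 3913.2 against 84.6, 94.2 and 327.8, and rose by 3.97 (adjusted p = 0.0365). Its called probe sets are of the x type and can also bind transcripts of the near-identical Lyz2, the lysozyme of macrophages, while the last Lyz1 probe set differed by 0.21. Tpsab1 has a close copy in Tpsb2 as well. The remaining rises among the 12 were those of the microglia and macrophage receptor Fcrls, the interferon-induced Trim30a, the lysosomal sulfatase Arsb and Sqor, a mitochondrial enzyme of sulfide oxidation, between 3.57 and 4.58. Trim30a, Arsb and Sqor have other probe sets that did not pass. Those of Arsb differed by 1.64 and 0.72, the latter with overlap. That of Sqor overlapped, with a difference of 3.70 (adjusted p = 0.445), and that of Trim30a differed by 3.69 (adjusted p = 0.0772). Fcrls read 203.7, 185.4 and 42.2 in the stroma against 29.4, 8.5 and 3.8 in the epithelium (adjusted p = 0.0192).

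None (0) of the 25 fibroblast markers passed at its brightest probe set, where 0.0879% of all genes were called higher. At an unadjusted p under 0.05, 19 were higher and 0 lower, 19 did not overlap, and the median was 2.23, with 1.80, 1.72 and 2.90 within the glands. Without gland 3, 12 were higher at that level, and without gland 2, 16. Pdgfrb, a PDGF receptor of mesenchymal cells and pericytes, read 706.5, 1068.0 and 1254.3 in the stroma against 110.0, 92.7 and 88.8 in the epithelium, a difference of 3.34 (adjusted p = 0.0566). The proteoglycan Lum read 1404.0, 461.3 and 2673.4 against 130.2, 159.3 and 313.2 (difference 2.69, adjusted p = 0.0772). Collagen signals were high on both kinds of array. Col1a1 read 11475.8, 9115.4 and 11970.9 against 7757.6, 3048.6 and 4877.4, a difference of 1.15 (adjusted p = 0.311).

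Of 13 fibrillar collagens and lysyl oxidases, 9 were higher at an unadjusted p under 0.05 and 0 lower, with a median of 1.44. For Col3a1 the brightest probe set read 11412.9, 7358.5 and 10423.8 against 6011.2, 3029.4 and 2382.8, a difference of 1.44 that did not pass (adjusted p = 0.208), whereas 1427884_at read 3254.4, 1622.6 and 3749.7 against 421.3, 231.6 and 401.3 and rose by 2.99 (adjusted p = 0.0472). The collagen cross-linking enzyme Lox read 1124.9, 591.2 and 2400.7 against 219.5, 34.6 and 114.8 (difference 3.61, adjusted p = 0.109). Of 19 proteoglycans and matricellular proteins 12 were higher and 0 lower, with a median of 1.71, and of 14 elastic fibre genes 4 were higher, with 1.05. Mfap4, of the latter, read 1668.6, 429.8 and 2044.8 against 220.4, 108.9 and 45.2 (adjusted p = 0.0579).

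Basement membrane and integrin genes went both ways. Of 19 laminin and basement membrane genes, 2 were higher and 5 lower at an unadjusted p under 0.05, and the median was −0.05. Nid1, or nidogen, read 3632.9, 2800.1 and 3365.2 in the stroma against 1328.6, 595.9 and 454.9 in the epithelium, a difference of 2.19, while the epithelial laminin chain Lama5 read 44.9, 126.6 and 65.0 against 254.3, 315.0 and 294.8, a difference of −2.00. Of 16 integrins 3 were higher, with Itga1 at 2.96, and 4 lower, with Itgb8 at −2.68. None of these passed, with adjusted p between 0.14 and 0.216. Of 16 metalloproteinases and TIMPs, 6 were higher and 0 lower, and Adamts5, a protease that cuts aggrecan and versican, had the largest difference, 4.46 (adjusted p = 0.0961).

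Markers of mast cells, leukocytes and endothelium were also read mainly from the stroma. Of 10 mast cell markers, Tpsab1 passed and 8 were higher at an unadjusted p under 0.05, with a median of 3.19. Cpa3, the mast cell carboxypeptidase, read 3399.5, 2457.4 and 3036.3 in the stroma against 526.6, 125.4 and 171.1 in the epithelium (difference 3.71, adjusted p = 0.12). Of 18 leukocyte markers 10 were higher and 0 lower, with a median of 2.25, and the mannose receptor Mrc1 of macrophages read 2553.9, 1877.7 and 2803.6 against 191.4, 254.3 and 15.4 (difference 4.71, adjusted p = 0.0633). Of 17 endothelial markers 11 were higher and 0 lower, with a median of 2.29, and the angiopoietin receptor Tek read 1139.0, 536.7 and 682.4 against 87.5, 43.1 and 15.1 (difference 4.28, adjusted p = 0.119). Without gland 3 the counts were 5 for mast cells, 7 for leukocytes and 8 for endothelium, and without gland 1 the endothelial count was 6.

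Smooth muscle and pericyte markers had 4 of 13 higher and 0 lower, with Rgs5 of pericytes at 1499.7, 2810.9 and 1803.5 against 277.6, 228.3 and 317.4. Schwann cell markers split. Pmp22, a myelin protein that fibroblasts also make, read 805.9, 680.3 and 653.2 in the stroma against 76.3, 85.3 and 60.9 in the epithelium (difference 3.27, adjusted p = 0.0521). Sox10 and Erbb3, which are also genes of mammary epithelium, had differences of −3.28 and −3.28, and in both the stroma of gland 3 was the highest. Of 9 Schwann markers 4 were higher and 2 lower, and none (0) of the 20 skeletal muscle markers reached an unadjusted p under 0.05.

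Adipocyte markers were higher in the stroma in the median (1.85), and 10 of 14 did not overlap, but only 4 had an unadjusted p under 0.05 and without gland 1 or gland 2 only 2. Adipoq, or adiponectin, read 4616.0, 5045.3 and 1866.8 in the stroma against 521.8, 680.2 and 927.2 in the epithelium, a difference of 2.35 (adjusted p = 0.391). The fatty acid carrier Fabp4 read 11700.9, 13189.1 and 8386.8 against 4595.5, 7625.0 and 6717.9, a difference of 0.82 with an adjusted p of 0.629. Of 15 adipogenic transcription factors, 5 were higher and 0 lower, with a median of 1.55, and without gland 1 the count was 3. Pparg, the master factor of fat cells, read 891.0, 941.5 and 507.7 against 284.1, 99.0 and 315.0, a difference of 1.86 (adjusted p = 0.572).

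Signals and their receptors were in part read from opposite compartments. Fgf7, a stromal ligand, read 238.6, 148.9 and 316.9 in the stroma against 55.2, 15.5 and 0.6 in the epithelium, a difference of 4.81 (standard error 1.27, adjusted p = 0.121), and Fgf10 read 167.7, 70.1 and 76.3 against 52.9, 21.5 and 22.0 (1.72, adjusted p = 0.356). Their receptor gene Fgfr2 read 641.9, 476.7 and 849.3 against 1778.7, 2585.3 and 2306.1, a difference of −1.78 (adjusted p = 0.191). The 3 genes did not overlap between compartments and none passed. Of 18 FGF genes, 2 were higher and 3 lower at an unadjusted p under 0.05, beside 5.85% and 7.03% of all genes.

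For PDGF the sides were turned. Pdgfc, the ligand, fell by 2.98 in the stroma at 1449351_s_at, with 63.8, 41.6 and 173.9 against 539.6, 662.2 and 638.4 (adjusted p = 0.0402). At the brightest probe set it read 143.8, 65.1 and 546.2 against 953.5, 1876.1 and 1840.8, a difference of −3.11 (adjusted p = 0.0579). Its receptor Pdgfra read 340.3, 450.3 and 554.1 in the stroma against 120.3, 104.7 and 332.2 in the epithelium, a difference of 1.45 (adjusted p = 0.254). The chemokine pair lay as the FGF pair did. Cxcl12 read 741.8, 453.5 and 656.2 in the stroma against 154.9, 70.9 and 88.4 in the epithelium (difference 2.61, adjusted p = 0.195), and its receptor Cxcr4 read 1846.7, 725.5 and 3016.3 against 4511.3, 5074.7 and 6113.8 (difference −1.70, adjusted p = 0.159).

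Neuregulin 1 (Nrg1) and its receptor Erbb3 were both read mainly from the epithelium. Nrg1 read 2.4, 9.8 and 47.0 against 57.5, 153.6 and 140.0 (difference −3.38, adjusted p = 0.154), and Erbb3 read 134.8, 28.1 and 655.8 against 816.5, 1543.6 and 1794.5 (difference −3.28, adjusted p = 0.0771). In the Notch pathway the ligand Jag1 read 633.5, 475.2 and 629.9 in the stroma against 280.9, 172.6 and 58.5 in the epithelium, and the ligand Dll1 read 220.1, 86.9 and 953.0 against 1622.5, 1031.3 and 998.7, so the 2 ligands differed in opposite directions, by 2.02 and −2.17. The Notch target Hey1 read 340.2, 168.5 and 1052.9 against 2406.9, 2199.8 and 3029.9 (difference −2.68, adjusted p = 0.0584). None of these passed.

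**Figure D3:**
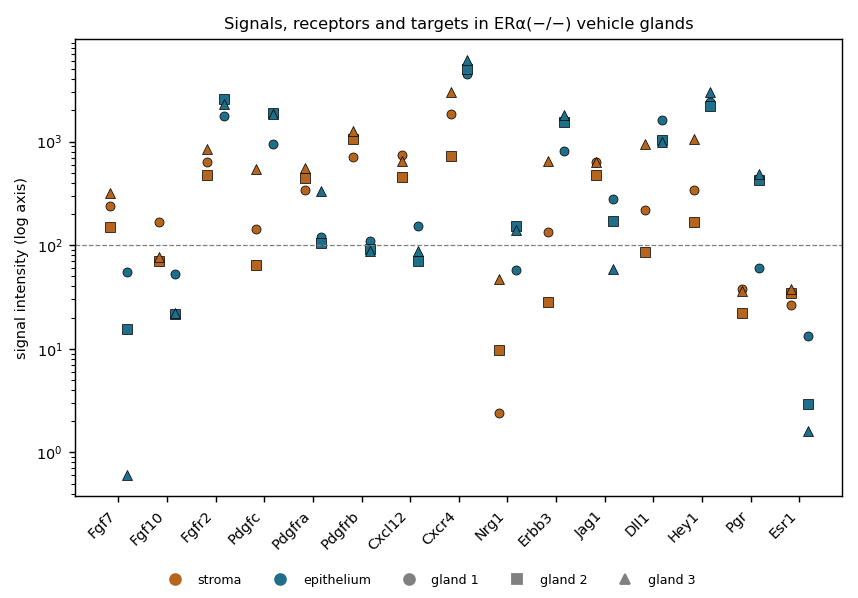
Signal intensity (log axis) of 15 genes of signals, receptors and targets on the 6 ERα(−/−) vehicle arrays, each at its brightest probe set. Points are arrays, the colour gives the compartment and the shape the gland, and the dashed line marks a signal of 100. The 15 genes were picked with their values known, so the lack of overlap between their compartments is not a result. Over all genes, 6.46% were higher and 8.06% lower in the stroma without overlap. None of the probe sets shown passed the adjusted threshold.

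Of 26 Wnt ligands and receptors, 8 were lower and 1 higher in the stroma at an unadjusted p under 0.05. The ligands Wnt5b, Wnt6 and Wnt10b differed by −3.72, −2.41 and −2.81, and Wnt6 read 15.2, 19 and 14.0 in the stroma against 136.4, 57.7 and 77.0 in the epithelium. The higher one was the receptor Fzd4, with 1254.4, 273.1 and 173.1 against 108.7, 64.9 and 25.6 (difference 2.79, adjusted p = 0.0642). Of 17 Wnt antagonists and targets, 4 were lower and 1 higher, and the antagonist Wif1 read 4.2, 7.8 and 24.8 against 80.9, 75.3 and 99.5. In the HGF and IGF list, the HGF receptor Met read 168.5, 82.5 and 209.2 against 415.4, 506.9 and 1822.9 (difference −2.35, adjusted p = 0.0859), while Hgf itself overlapped, at 92.2, 46.9 and 22.2 against 48.2, 30.4 and 23.0. The PTHrP receptor Pth1r read 109.8, 131.3 and 16.6 against 37.4, 3.1 and 0.9 (difference 3.72), and Tbx3, a factor of mammary placodes, read 206.7, 70.0 and 91.7 against 540.0, 500.2 and 1143.4 (difference −2.62, adjusted p = 0.0859).

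Other receptors for steroids were read at low to moderate signals without ERα. Esr2, which encodes ERβ, read 14.8, 50 and 2.6 in the stroma against 19.8, 26.1 and 2.5 in the epithelium, with a difference of 0.19 (adjusted p = 0.961). The estrogen-related receptor Esrra read 204.0, 115.2 and 159.4 against 52.2, 56.5 and 28.9, a difference of 1.82 (adjusted p = 0.236). Pgr, the progesterone receptor, read 37.4, 22.0 and 36.3 against 60.2, 427.7 and 491.2, so all 3 epithelium arrays were above all 3 stroma arrays in glands without ERα, with a difference of −2.91 that did not pass (standard error 1.15, adjusted p = 0.319). In the wild type Pgr read 10.7, 11.4 and 20.1 and 320.0, 217.6 and 444.1. Among 19 nuclear receptors 3 were higher and 2 lower at an unadjusted p under 0.05, beside 5.85% and 7.03% of all genes. Their median was 0.52. Nr2f1, an orphan receptor of mesenchyme, read 188.8, 115.8 and 115.6 against 7.3, 39.3 and 0.6.

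Of 19 estrogen target genes, 2 were higher and 6 lower at an unadjusted p under 0.05, none (0) passed, and the median was −0.59. The higher ones were Cxcl12 and Xbp1, a factor of the unfolded protein response, with 707.4, 612.4 and 1497.8 against 187.0, 190.2 and 384.3 (difference 1.86, adjusted p = 0.159). The potassium channel gene Kcnk5 read 76.3, 11.7 and 1.5 against 137.2, 310.4 and 404.3 (difference −4.55, adjusted p = 0.0583), and Ccnd1, or cyclin D1, read 1081.6, 331.6 and 1859.5 against 3199.9, 2696.9 and 3295.1 (difference −1.80, adjusted p = 0.128). Greb1, a classic ERα target, was called lower at a dim probe set, 1439568_at, with 0.9, 1.5 and 4.9 in the stroma against 15.9, 12 and 49.6 in the epithelium (adjusted p = 0.0365). Its brightest probe set overlapped, at 22.8, 4.0 and 3.6 against 8.6, 10.9 and 2.4, a difference of 0.18.

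None (0) of the members of the remaining lists passed at the brightest probe set. Over all genes, 5.85% were higher and 7.03% lower at an unadjusted p under 0.05, and the smallest counts below lie near these shares. The counts higher and lower at an unadjusted p under 0.05 were 3 and 2 of 15 Notch genes, 2 and 2 of 14 ERBB genes, 4 and 2 of 15 PDGF, VEGF and angiopoietin genes, 5 and 4 of 19 HGF and IGF genes, and 5 and 2 of 16 chemokine genes. They were 1 and 3 of 18 PTHrP, BMP and ectodysplasin genes, 2 and 1 of 12 Hedgehog genes, 1 and 2 of 15 TGF-β genes, and 2 and 4 of 17 Eph and ephrin genes. Of 12 prolactin pathway and milk protein genes 1 was higher and 3 were lower, among them the milk protein Csn3, with 25.1, 30.6 and 563.0 in the stroma against 71.7, 1186.2 and 545.6 in the epithelium. Markers of other cells gave 2 and 1 of 6 for lymphatic endothelium, 2 and 0 of 8 for erythroid cells, and 1 and 2 of 15 for keratinised epidermis.

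Genes of general functions differed little in comparison. Of 26 oxidative phosphorylation genes and 20 ribosomal protein genes, none (0) reached an unadjusted p under 0.05, and the medians were 0.10 and −0.24, beside −0.13 over all genes. After quantile normalization they were 0.20 and −0.15. Of 21 cell cycle genes, 20 had a difference below 0 and 2 an unadjusted p under 0.05, with a median of −0.82, and −0.61 after quantile normalization. The proliferation marker Mki67 read 5868.5, 3116.2 and 4495.1 in the stroma against 5790.2, 5871.2 and 5919.4 in the epithelium (difference −0.43, adjusted p = 0.76). The 19 lists with a median of at least 1 in size had the same sign under each alternative tried, in ERα(−/−) glands. Alternatives that changed only the variance model, the block or the other arrays fitted return the same differences. Only the remaining alternatives could have changed a sign.

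**Figure D4:**
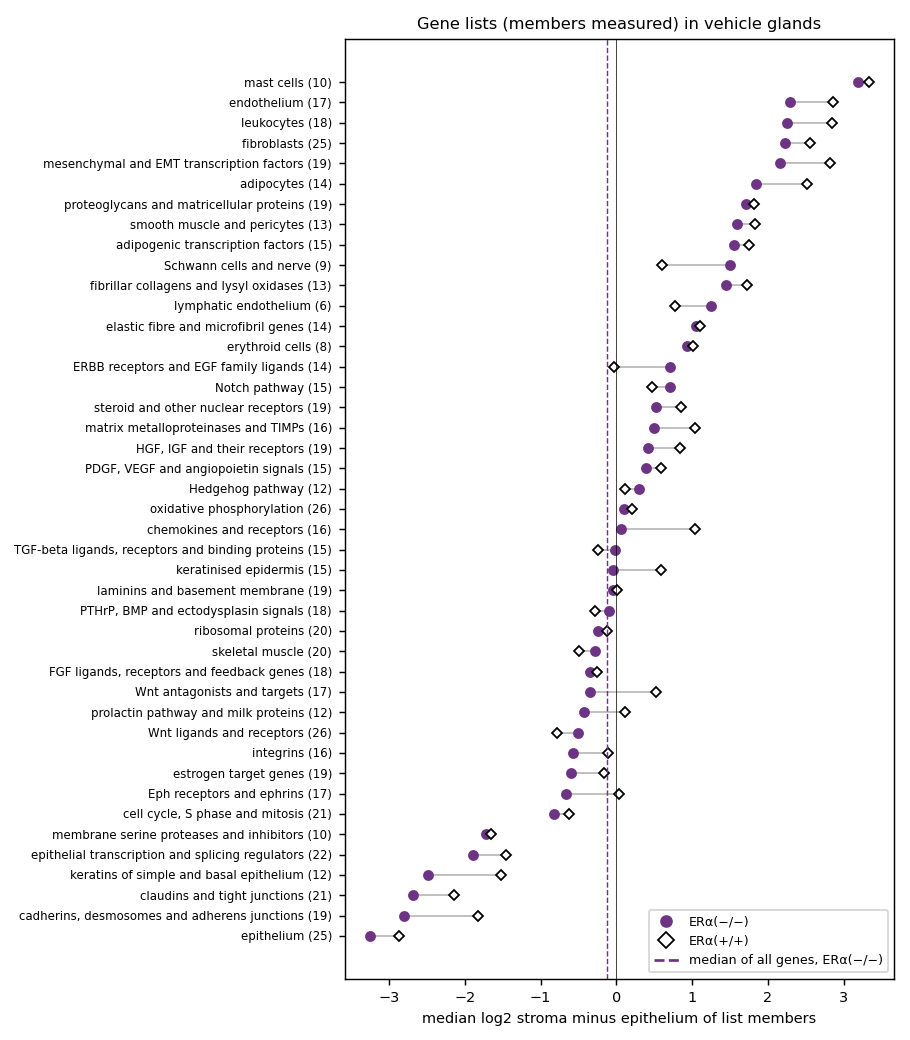
Median log2 difference, stroma minus epithelium, of the measured members of each of the 43 gene lists in ERα(−/−) (filled) and ERα(+/+) (open) vehicle glands, with the number of members in brackets. The dashed line is the median of all genes in ERα(−/−) glands, −0.13. Epithelial, junction and keratin lists lie lowest and mast cell, endothelial, leukocyte and fibroblast lists highest in ERα(−/−) glands, and the grey lines join the genotypes.

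The wild type glands were fitted in the same way, with 55 of 45101 probe sets called (0.122%), 29 higher (0.0643%) and 26 lower (0.0576%) in the stroma, and with 7.07% higher and 5.87% lower at an unadjusted p under 0.05. Of the 31 probe sets called higher in ERα(−/−) glands, 29 had the same sign in the wild type, 23 of them at an unadjusted p under 0.05, and of the 70 called lower, 64 and 50. Over all genes at their brightest probe set, 60.5% had the same sign in both genotypes. The median difference of the higher ones was 4.58 in ERα(−/−) and 2.26 in ERα(+/+) glands, and that of the lower ones −4.21 and −2.44. These probe sets were chosen by their ERα(−/−) values, so the size in the wild type is a description. Called in both genotypes were 14, or 13.9% of the ERα(−/−) and 25.5% of the ERα(+/+) calls, among them Cdh1, St14, Pard6b, Rhpn2, Ttyh1, Runx1, the sodium channel gene Scn7a and 2 probe sets of Krt8. Of the 55 wild type calls, 52 had the same sign in ERα(−/−) glands and 41 an unadjusted p under 0.05 there. Without wild type gland 3, the wild type calls were 335 higher and 97 lower.

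**Figure D5:**
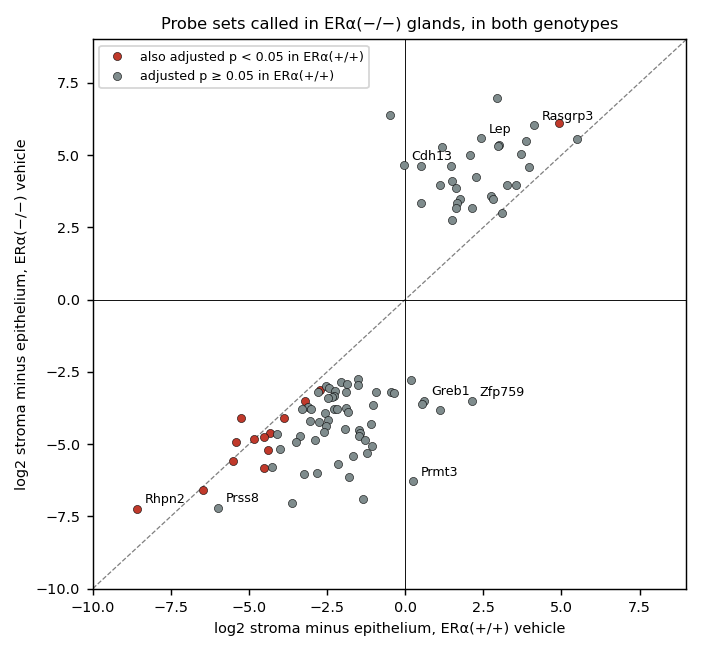
Log2 difference, stroma minus epithelium, of the 101 probe sets called in ERα(−/−) vehicle glands, with the wild type on the horizontal and the knockout on the vertical axis. Red points passed the adjusted threshold in both genotypes, grey points only in the knockout, and the dashed line marks equal differences. Most points lie in the quadrants where the signs are the same, and Prmt3, Zfp759, Cdh13 and Greb1 are labelled among those that lie near or across the vertical line.

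The test of the difference itself, the ERα(−/−) minus the ERα(+/+) compartment difference, called no probe set (0, 0.0%) at a limma adjusted p under 0.05. At an unadjusted p under 0.05 there were 2751 (6.1%), 1072 (2.38%) with a more positive and 1679 (3.72%) with a more negative difference in ERα(−/−) glands, and the median standard error was 1.27. No compartment difference is thus shown to be particular to glands without ERα. The lowest adjusted p was 0.0630 for the zinc finger gene Zfp759, with differences of −3.51 in ERα(−/−) and 2.13 in ERα(+/+) glands. It passed after quantile normalization (adjusted p = 0.0125), and its stroma arrays read 16.9, 5.0 and 2.8 and its epithelium arrays 139.7, 90.4 and 27.6 in the knockout, while its other probe set overlapped.

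The 5 genes of lowest p with a mean signal of at least 100 in a group are given as not passing. Irs2, an adaptor of the insulin and IGF receptors, read 91.9, 6.5 and 7.7 in the stroma against 124.7, 31.6 and 212.7 in the epithelium of ERα(−/−) glands, and 74.1, 30.5 and 47.4 and 4.2, 2.3 and 2.1 in ERα(+/+) glands. Its epithelium values were higher in each knockout gland than in any wild type gland, and the differences were −2.50 and 4.12, apart by −6.63 (standard error 1.03, adjusted p = 0.136). Prmt3 had differences of −6.28 and 0.25 (adjusted p = 0.454), at 1 of its 5 probe sets. Vegfd, a growth factor of lymphatic vessels, had −0.99 and 5.67 (adjusted p = 0.698). For Hadhb, a subunit of mitochondrial β-oxidation, they were 3.10 and −2.12, and for Rps20, a ribosomal protein, −3.10 and 1.08. Both genes have brighter probe sets, with knockout differences of 0.45 and 1.19 for Hadhb and of −0.04 and 0.03 for Rps20.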

How the data were processed

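Gene expression was measured on Affymetrix Mouse Genome 430 2.0 arrays. The deposited intensity values are linear signals that the submitters' processing notes credit to GCOS (version not stated). The methods of the authors describe RMA and log values, but the table holds 39 zeros and no log values, and its scaling is not given in the sources used here. The values were raised to at least 0.1, taken to log2 and fitted with limma 3.58.1 and statmod 1.5.0 in R 4.3.3. The fit took 36 arrays, a fixed block for each gland and a compartment difference for each of 6 genotype and exposure groups, with 12 residual degrees of freedom, and Benjamini-Hochberg adjustment over 45101 probe sets. Both compartments of a gland share a replicate number in the labels and, per the methods, a fetus. Same-numbered pairs of ERα(−/−) vehicle glands had residual correlations of 0.0336, 0.0693 and 0.0853, and the others were below 0. Deviations from a group mean sum to 0, which by itself pushes the others down. In the other groups the same-numbered pairs were above 0, except gland 2 of ERα(−/−) BPA at −0.0388. There, stroma 3 with epithelium 2 gave 0.0601 and stroma 2 with epithelium 3 gave 0.0525, both above the 0.00681 of gland 3. Whether replicate numbers were exchanged in that group was not tested. In ERα(−/−) EE2, stroma 2 with epithelium 1 gave 0.0304, above the 0.0189 of gland 2. In ERα(+/+) BPA, gland 2 gave 0.00576, below the 0.0447 of stroma 1 with epithelium 2.

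Of the probe sets, 34958 had 1 gene symbol, 932 several and 9211 none. Each of 18194 genes was taken at its brightest probe set for the 43 lists (652 of 695 genes measured). Members and lists were chosen with earlier results of these data known. Named genes are the 12 largest rises and falls with 1 symbol, an adjusted p under 0.05, no overlap and a mean of at least 100 in the brighter compartment, up to 4 called members of each list, ligand and receptor pairs, and the 5 lowest p of the genotype difference. Other list members and second probe sets were picked after their values were seen. The fit was tested on simulated data. Alternatives covered scaling, offset, filter, variance model, block, arrays fitted, the methods' t-test and each gland left out. Promoter sequences came from RefSeq tables (GRCm38.p6), read with Python 3.11.15 and pandas 2.3.3. The number of arrays limits the precision, and effects of amplification on the signals were not tested.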

Additional observations from a re-analysis of the deposited data

How the results depend on the processing

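The numbers of called probe sets depended on the processing. The direction of the 24 genes named by rank was the same under each alternative. Their rule required no overlap between the compartments. A change of block, variance model or offset, or leaving out a gland, could therefore not have reversed it. In ERα(−/−) glands, with 31 higher and 70 lower in the stroma, quantile normalization gave 117 and 119, 16 added before the log 237 and 351, a filter on a mean signal of 50 (17564 probe sets tested) 202 and 262, and a robust trend in the variance 237 and 282. The gland as a random block gave 102 and 207 (correlation 0.162), and the fit with no replicate block 15 and 57, of which 7 and 44 were called with the block. The 12 vehicle arrays alone, the 6 ERα(−/−) vehicle arrays alone and the methods' t-test after Benjamini-Hochberg each gave 0 and 0, and the methods' t-test at an unadjusted p under 0.05 with at least 2-fold gave 937 and 1037. Leaving out 1 gland left 1 to 15 higher and 7 to 39 lower.

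In ERα(+/+) glands, with 29 and 26, the same settings gave 17 and 16 (quantile), 258 and 215 (16 added), 339 and 207 (filter), 409 and 218 (trend), 158 and 154 (random block), 10 and 20 (no replicate block) and 0 and 0 (12 vehicle arrays), and leaving out 1 gland 0 to 335 and 0 to 97. The difference between genotypes, with 0 calls, gave 1 more positive and 1 more negative after quantile normalization (an unnamed probe set and Zfp759), 1 and 0 with the random block, and 0 and 1 without wild type gland 3 (Vegfd, adjusted p = 0.0472), a setting chosen after seeing the data. The paired and unpaired fits both called 0 there.

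Of the 24 named genes, the number past the threshold was 24 after quantile normalization and with the trend, 23 with 16 added, 15 of the 15 left by the filter, 21 with the random block, 10 with no block, 5, 3 and 2 without gland 1, 2 and 3, and 0 in the 3 settings without calls. Counts of list members at an unadjusted p under 0.05 stayed within 1.5 times in 536 of 756 cases. No detection calls were used, so signals of a few units cannot be set apart from background, and the cause of these shifts was not tested.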
